A study of Homo sapiens with 12 samples.

Results

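Small nucleolar RNA host genes were examined in MV3, an established human melanoma cell line. They were taken as every gene in the deposited expression matrix named SNHG followed only by digits, together with GAS5 and EPB41L4A-AS1, which gave 26 of the 58288 gene identifiers in the count table. MV3 cells grown with 10% serum spent 3 h in RPMI with 1% serum and then 24 h in a test medium. For 3 of the media, THP-1 cells, a human monocyte line, had been turned into macrophages that then conditioned the medium: M0 from macrophages differentiated with PMA, M1 from such macrophages polarized further with LPS and IFNγ, and M2 from such macrophages polarized further with IL4 and IL13. The fourth, Ctrl, was fresh RPMI that no cells had conditioned, so a comparison with Ctrl includes conditioning itself. Each group had 3 libraries, 12 in all. The labels do not say that replicates were separate cultures, so p-values speak only for the spread of these libraries, and that spread may be technical.

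A small nucleolar RNA host gene carries one or more small nucleolar RNAs in its introns. Once the transcript is spliced, the small RNA is trimmed out of the intron and guides the chemical modification of ribosomal RNA. Box C/D guides direct 2'-O-methylation, box H/ACA guides direct pseudouridylation, and small Cajal body RNAs act on spliceosomal RNA. The spliced exons left over are mostly noncoding, and several, GAS5 the best known, are broken down by nonsense-mediated decay while they are translated. Many host genes start, like ribosomal protein genes, with a C inside a run of pyrimidines, the terminal oligopyrimidine tract. Reads counted here come from polyadenylated RNA, so they were read as levels of the host transcripts and do not measure the mature small RNAs. The annotated exons of some members, SNHG9 among them, cover the whole gene. Reads from unspliced RNA or from the small RNAs may therefore enter host counts, and how far was not tested.

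Of the 26 host genes, 24 have at least one annotated small nucleolar or Cajal body RNA gene inside them on the same strand in GENCODE release 29. SNHG14 encloses 84, SNHG1 encloses 7, and SNHG12 and SNHG17 enclose 5 each. By the names of those genes, 8 members host box C/D guides, 9 host box H/ACA guides, 2 host both and 4 host small Cajal body RNAs. GAS5 is known as a host of box C/D guides, but none is annotated inside it in that release. On GRCh38, SNHG1 lies at chr11:62851988-62855914 on the minus strand, SNHG17 at chr20:38420588-38435353 on the minus strand, and GAS5 at chr1:173863900-173868882 on the minus strand. EPB41L4A-AS1 lies at chr5:112160526-112164276 on the plus strand and SNHG18 at chr5:9546200-9550609 on the plus strand.

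The annotated starts show how far the members share the pyrimidine tract. RefSeq promoter sequences (GRCh38.p14) were matched for 22 of the 26 genes. At 5 of these 22 starts, 22.7%, the first base was a C followed by at least 4 further pyrimidines, against 4.04% of all 27305 promoters in the table. The 5 genes, SNHG5, SNHG12, SNHG18, SNHG19 and SNHG4, are shown first, followed by SNHG17 and SNHG1, which changed most clearly between the macrophage media. Each line holds 20 bases before the annotated start and 30 bases from it, 5′ to 3′, and capitals mark a pyrimidine tract that starts with C.
SNHG5, chr6:85678704-85678753, minus strand: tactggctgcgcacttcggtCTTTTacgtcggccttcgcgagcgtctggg
SNHG12, chr1:28581844-28581893, minus strand: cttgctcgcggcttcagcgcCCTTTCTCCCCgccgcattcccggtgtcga
SNHG18, chr5:9546180-9546229, plus strand: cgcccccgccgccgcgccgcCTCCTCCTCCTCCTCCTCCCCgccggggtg
SNHG19, chr16:2155329-2155378, minus strand: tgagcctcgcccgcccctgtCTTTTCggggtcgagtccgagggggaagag
SNHG4, chr5:139274081-139274130, plus strand: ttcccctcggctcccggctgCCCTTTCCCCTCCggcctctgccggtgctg
SNHG17, chr20:38435299-38435348, minus strand: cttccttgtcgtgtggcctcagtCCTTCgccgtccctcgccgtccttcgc
SNHG1, chr11:62855856-62855905, minus strand: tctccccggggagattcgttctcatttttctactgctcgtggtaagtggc

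SNHG17's tract begins 3 bases after its annotated start, and SNHG1 has none within 10 bases of this start. Within 10 bases of the start a tract was present in 12 of the 22 members, 54.5%, against 33.3% of all promoters. In GENCODE release 29, 30 of the 237 annotated transcripts of the 26 genes, 12.7%, start with such a tract, against 2.41% of 206694 transcripts of all genes. Of the 29 GAS5 transcripts, 6 start with it, and they share this first exon, whose tract is in capitals.
GAS5, chr1:173867960-173867989, minus strand: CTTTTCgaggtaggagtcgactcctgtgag

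Members with the tract did not all go one way. SNHG5, SNHG18, SNHG4, SNHG12 and SNHG19 all start with the tract. In the measurements below SNHG5 was higher than in Ctrl in all 3 media, SNHG4 was lower in all 3, and SNHG18 was lower in M0 and M2. With all libraries, SNHG12 and SNHG19 were called lower in M1 only. The E-box letters CACGTG, read on both strands of the whole RefSeq promoter window, occurred in 1 of 22 members, SNHG7, against 7.43% of all promoters. The letters TGATGNAA, a form of the amino acid response element, occurred in 0 of 22 on either strand, against 3.67% of all promoters.

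Library totals ran from 21788397 to 42921242 counts, so 1 read was worth 0.0228 to 0.0465 CPM (the count scaled to library size) and a count of 0 allows at most 3 reads, 0.0685 to 0.14 CPM in 1 library, for counting error only. Of 12 macrophage markers, AIF1 had 0 reads, TYROBP and SPI1 had 1 read each, and all 12 summed to 0.911 to 0.977 CPM in M0, 0.634 to 0.927 in M1, 0.822 to 1.03 in M2 and 1.1 to 1.31 CPM in Ctrl. MV3's melanocytic markers were almost absent: TYR and S100B had 0 reads, SOX10 and MLANA 1 read each, and MITF alone passed the filter on low counts, whereas 7 of 9 dedifferentiated melanoma markers did. Ctrl replicate 1 had 119 genes at least 2-fold above both other Ctrl libraries, against 7 to 45 genes so far above their group in the other 11 libraries. Genes at least 2-fold below both others of the group were most frequent in M0 replicate 3 with 104, M0 replicate 2 with 91 and M1 replicate 2 with 83, and Ctrl replicate 1 had 21. Over both directions M0 replicate 3 had 145 such genes, Ctrl replicate 1 had 140 and M0 replicate 2 had 136. Reads on the 992 annotated small nucleolar RNA gene identifiers came to 30.7 CPM in Ctrl replicate 1, against 10.1 to 13.6 CPM in the other 11 libraries.

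SNHG3, SNHG12, SNHG26 and SNHG4 were high in that library. SNHG3 had 73.7 CPM in Ctrl replicate 1, against 40.8 and 38.2 in the other Ctrl libraries. SNHG12 had 13.9 against 7.03 and 5.28, SNHG26 had 6.05 against 2.11 and 2.12, and SNHG4 had 9.43 against 4.49 and 3.09 CPM. Reads on the small RNA genes inside the members came to 8.63 CPM in Ctrl replicate 1, against 1.37 to 2.28 CPM in the other 11 libraries. Of these 378 reads, 115 lay in SNHG17, 114 in SNHG3, 52 in SNHG12, 19 in SNHG26 and 8 in SNHG4. SNHG17 itself was not high in that library, at 1.06 times the mean of the other Ctrl libraries. It had 91.9 CPM there, where 1 read was worth 0.0228 CPM, so 115 reads were too few to show in its level. The part of these small RNA reads in the values of the host genes was not tested, and results for these 4 genes against Ctrl are given with and without that library. GAS5 was much closer across Ctrl, at 46.1, 39.5 and 40.6 CPM.

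**Figure D1:**
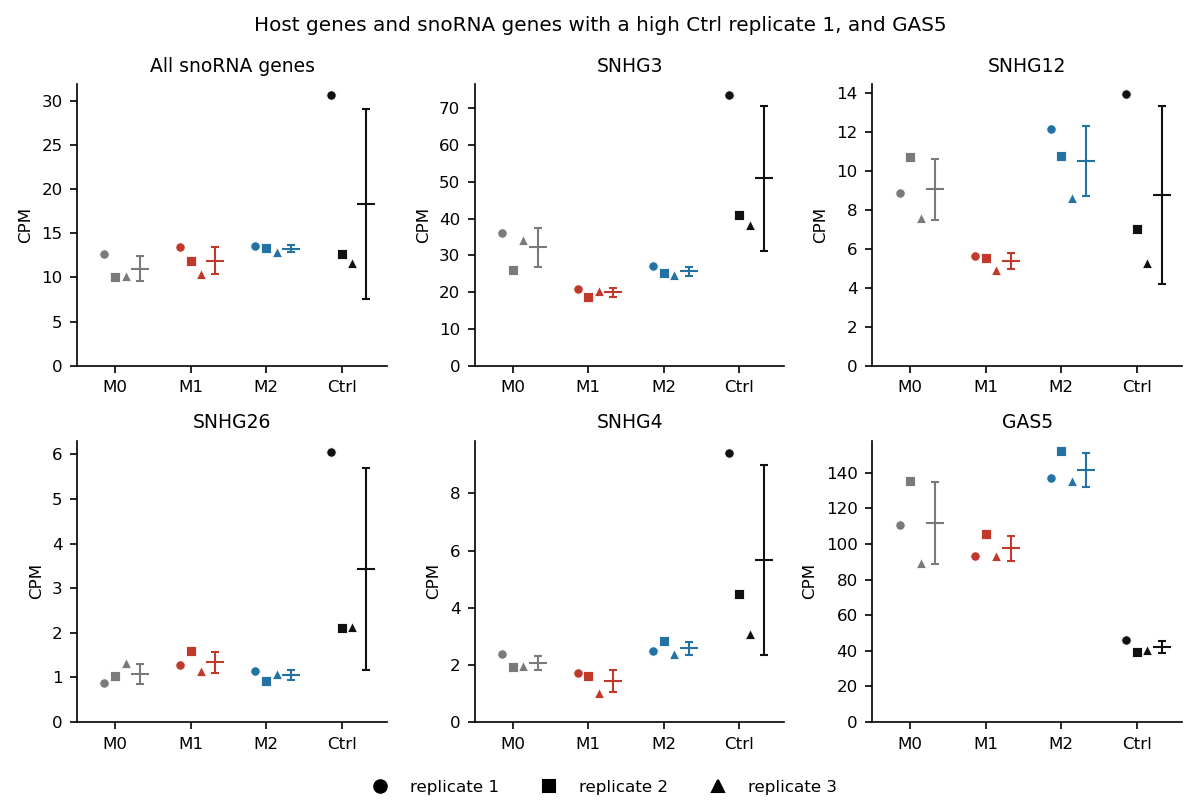
CPM in each library of all annotated small nucleolar RNA genes together, of SNHG3, SNHG12, SNHG26 and SNHG4, and of GAS5, with 1 marker shape per replicate number and bars for mean ± SD (n = 3). In the first 5 panels Ctrl replicate 1 is the highest of the 12 libraries, at 30.7 CPM for the small nucleolar RNA genes and 73.7 CPM for SNHG3; GAS5 in Ctrl stays between 39.5 and 46.1 CPM.

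Per kilobase of annotated exon, SNHG8 had the highest mean of the host genes in every group, at 63.5 ± 6.37 CPM per kb in M0, 29.9 ± 4.5 in M1, 56.8 ± 1.53 in M2 and 21.6 ± 3.81 in Ctrl (SD, n = 3 each). SNHG17, which carries H/ACA guides, followed in M0 at 49.5 ± 2.99 and in Ctrl at 21.1 ± 0.826 CPM per kb. SNHG8 and SNHG17 did not differ beyond their spread in Ctrl, and in M1 SNHG8 was not above GAS5 or SNHG17, at 26.2 ± 0.326 CPM per kb, beyond its spread. GAS5 ranked 4 of 26 in M0, 2 in M1, 3 in M2 and 6 in Ctrl, with 30.8 ± 6.34, 26.9 ± 1.96, 38.9 ± 2.6 and 11.6 ± 0.975 CPM per kb. These lengths join the exons of all annotated isoforms, so they overstate the length of any one transcript. As reads, SNHG17, GAS5 and SNHG1 together made up 56.7% to 57.6% of the members' summed CPM in M0, 50.7% to 52.8% in M1, 55.8% to 57.1% in M2 and 40.2% to 41.5% in Ctrl.

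Among the 26, 3 members were almost silent and were not tested. SNHG14, the long transcript of the Prader-Willi region, had 22 reads over the 12 libraries, 12 of them in M2 replicate 2. SNHG22 had 9 reads and SNHG27 had 5. The other 23 passed the filter, 21 of them with at least 0.33 CPM, the filter's cutoff, in all 12 libraries. SNHG21 reached that cutoff in 6 libraries, 3 of Ctrl, 2 of M0 and 1 of M2, and SNHG25 in 4, so both passed on part of the samples.

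Added over all 26 genes, host gene CPM averaged 814.8 ± 14.7 in M0, 493.1 ± 10.2 in M1, 742.4 ± 28.8 in M2 and 447.7 ± 39.9 in Ctrl (SD, n = 3 each). The single libraries held 827, 819 and 798 CPM in M0, 491, 504 and 484 in M1, 774, 735 and 718 in M2, and 493, 432 and 418 in Ctrl. All M0 and M2 libraries were above all M1 and Ctrl libraries, and M1 overlapped Ctrl only at Ctrl replicate 1. In bulk RNA, a change of the whole population and a change in part of the cells cannot be told apart.

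**Figure D2:**
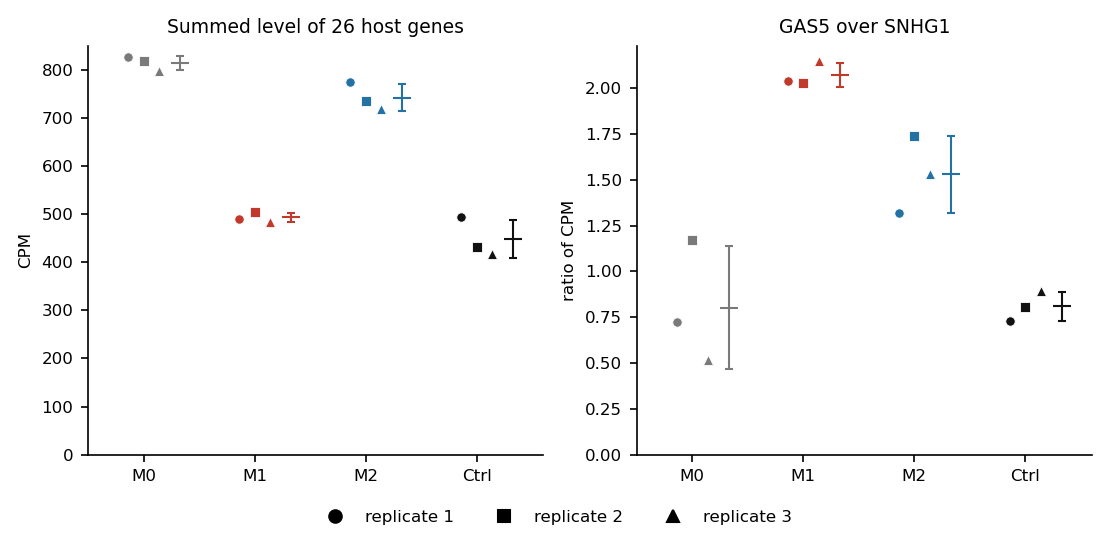
Left, summed CPM of the 26 host genes in each library; right, the ratio of GAS5 to SNHG1 CPM in each library, with bars for mean ± SD (n = 3). The sum averages 814.8 CPM in M0 and 742.4 in M2, against 493.1 in M1 and 447.7 in Ctrl, and the ratio is 2.03 to 2.15 in M1, above every other library.

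The first comparison asked how host genes in macrophage-conditioned medium stood against fresh medium. Genes were tested with edgeR's quasi-likelihood test over all 14088 genes that passed the filter, and a gene is called changed at a Benjamini-Hochberg adjusted p under 0.05. In M0 medium, 9 of the 23 tested members were higher than in Ctrl and 6 were lower, where 31.1% of all tested genes were higher and 30.6% lower. M1 medium had 6 higher and 11 lower, where 35.2% of all genes were higher and 35.0% lower. With M2 medium, 9 were higher and 8 lower, where 34.1% of all genes were higher and 32.4% lower. At a change of at least 2-fold, 7 were higher and 3 lower in M0, 3 higher and 9 lower in M1, and 6 higher and 5 lower in M2, where among all genes the shares higher were 8.36%, 12.7% and 10.4% in M0, M1 and M2 and the shares lower 8.03%, 10.9% and 9.32%. The total called, 65.2%, 73.9% and 73.9% of tested members in M0, M1 and M2, was close to the 61.7%, 70.2% and 66.5% of all genes. The members' median log2 fold change was 0.13 in M0, -0.52 in M1 and 0.21 in M2, beside 0.00, 0.00 and 0.02 for all tested genes. These 3 comparisons share the Ctrl libraries, so they are not independent of each other. SNHG21, which had few reads and passed the filter through the groups where it was high, is among the members counted lower in M1 and M2.

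In all, 6 host genes rose in all 3 media: EPB41L4A-AS1, GAS5, SNHG5, SNHG8, SNHG15 and SNHG17. For this and the other patterns over the 3 media below, the share of all tested genes was not counted. Their numbers therefore only describe the members. EPB41L4A-AS1, the host of SNORA13, showed the largest rise against Ctrl of the 23 in each medium. It had 19.4, 19.8 and 17.6 CPM in M0, 14.5, 12.8 and 13.4 in M1, 20.9, 17.4 and 17.8 in M2, and 4.91, 5.52 and 4.47 CPM in Ctrl. Every conditioned library was above every Ctrl library, and M1 was the lowest of the conditioned groups. The log2 fold change over Ctrl was 1.93 ± 0.11 in M0 (SE, adjusted p = 7.21e-10), 1.45 ± 0.11 in M1 (9.55e-09) and 1.92 ± 0.11 in M2 (5.96e-10). EPB41L4A, the gene on the opposite strand, had 8 reads over all 12 libraries.

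GAS5, a growth arrest-associated transcript that accumulates when its translation-coupled decay slows, had 111, 135 and 89.1 CPM in M0, 93.5, 106 and 93.5 in M1, 137, 152 and 135 in M2, and 46.1, 39.5 and 40.6 CPM in Ctrl. Conditioned and Ctrl libraries did not overlap, and the M0 libraries spread more widely than the others. Its log2 fold change over Ctrl was 1.41 ± 0.12 in M0 (adjusted p = 7.42e-08), 1.21 ± 0.12 in M1 (2.04e-07) and 1.75 ± 0.12 in M2 (5.2e-09). ZBTB37, which overlaps GAS5 on the opposite strand, had mean levels of 18.7, 26 and 23.3 CPM in M0, M1 and M2, and 17.7 CPM in Ctrl.

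SNHG5, the host of SNORD50B, had 33.5, 37.0 and 28.4 CPM in M0, 25.8, 33.1 and 26.5 in M1, 39.5, 38.4 and 38.5 in M2, and 11.6, 11.4 and 10.3 CPM in Ctrl. As with GAS5, all 9 conditioned libraries lay above Ctrl, with the highest values in M2. The fold over Ctrl was 2.95 in M0, 2.55 in M1 and 3.48 in M2 (adjusted p = 1.1e-08, 2.84e-08 and 1.65e-09).

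For the other 3 of the 6, the rise in M1 was small. SNHG8, the host of SNORA24, had 62.5, 61.5 and 51.8 CPM in M0, 29.4, 22.9 and 30.6 in M1, 53.7, 52.6 and 50.9 in M2, and 16.2, 23.2 and 20.4 CPM in Ctrl. M1 replicate 2 fell inside the Ctrl range, while M0 and M2 were well above it. Fold changes over Ctrl were 2.95 in M0 (adjusted p = 4.51e-08), 1.39 in M1 (0.00316) and 2.64 in M2 (1.09e-07). SNHG15, which carries SNORA9, was 2.46-fold higher in M0, 1.33-fold in M1 and 2.13-fold in M2 (adjusted p = 8.62e-08, 0.00351 and 4.15e-07).

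SNHG17, with its cluster of SNORA71 guides, had the most reads of all members. Its CPM was 204.5, 221 and 196 in M0, 109, 109 and 111 in M1, 192, 180 and 181 in M2, and 91.9, 85.1 and 87.6 in Ctrl. The 4 groups did not overlap. The log2 fold change over Ctrl was 1.23 ± 0.06 in M0 (adjusted p = 1.55e-10), 0.31 ± 0.06 in M1 (0.000243) and 1.06 ± 0.06 in M2 (7.19e-10).

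A further 3 members were called higher in M0 and M2 but not in M1. SNHG1, whose introns hold 6 named SNORD genes, had 153, 116 and 174 CPM in M0, 45.8, 52.1 and 43.4 in M1, 104, 87.4 and 88.0 in M2, and 63.1, 49.0 and 45.5 CPM in Ctrl. The M0 and M2 libraries were all above Ctrl, and M1 overlapped Ctrl. Its log2 fold change over Ctrl was 1.49 ± 0.14 in M0 (adjusted p = 2.43e-07), -0.16 ± 0.14 in M1 (0.316) and 0.82 ± 0.14 in M2 (8.63e-05). SNHG11 and SNHG16 moved less: SNHG11 was 1.31-fold higher in M0 and 1.27-fold in M2, and SNHG16 was 1.24-fold and 1.15-fold higher. In M2 these small calls were lost without 1 Ctrl library, for SNHG11 without replicate 2 (adjusted p = 0.0534) and for SNHG16 without replicate 3 (0.0597).

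**Figure D3:**
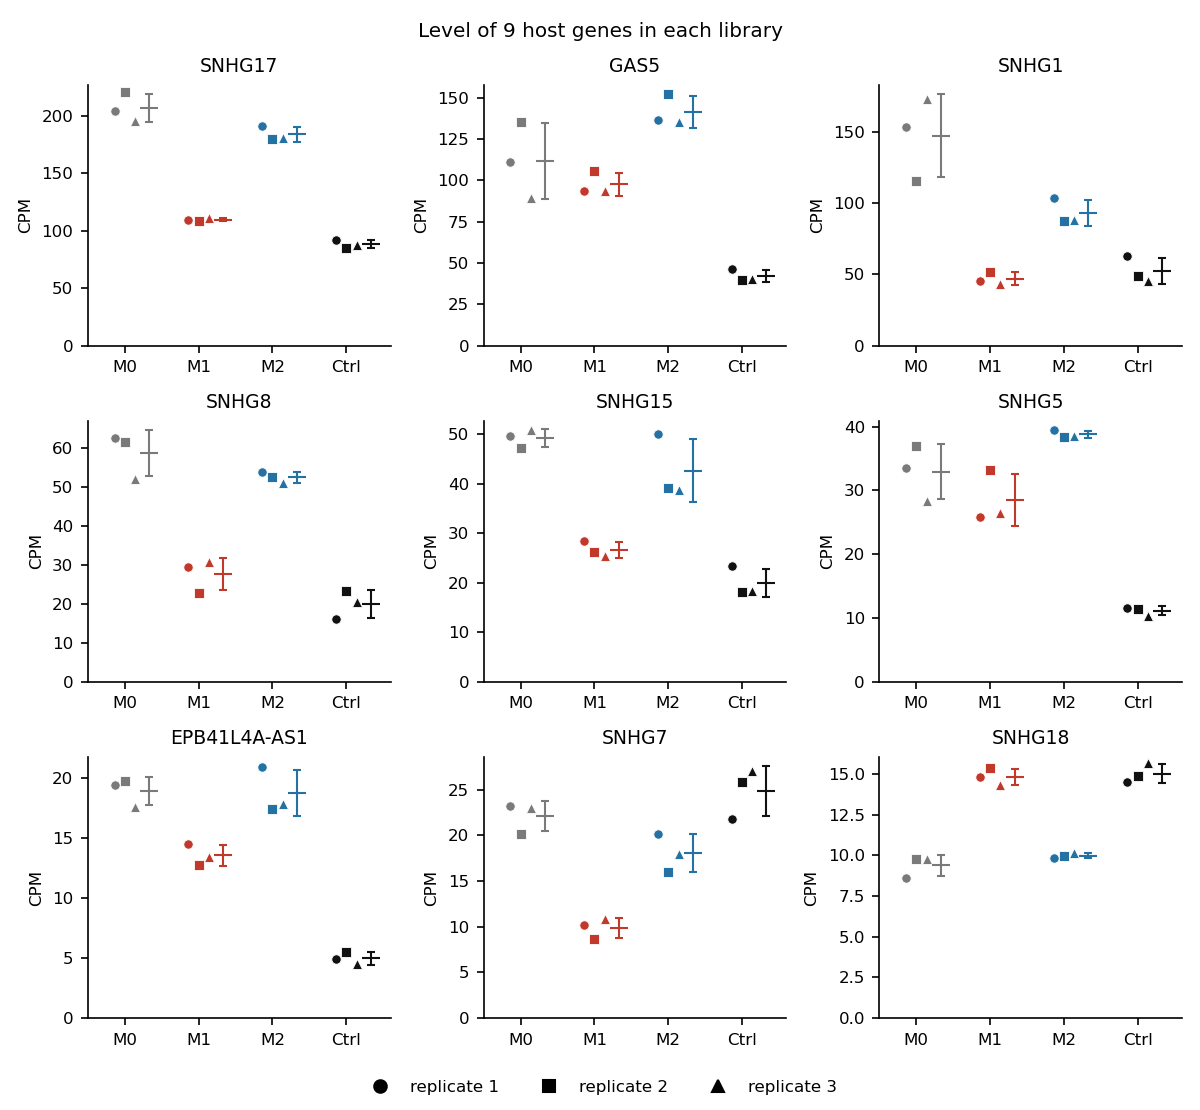
CPM of 9 host genes in each library (vertical axes start at 0), with 1 marker shape per replicate number and bars for mean ± SD (n = 3). For SNHG17, SNHG1, SNHG8 and SNHG15 the M1 libraries lie far below M0 and M2, as for SNHG17 with 109 to 111 CPM in M1 and 180 to 221 in M0 and M2; GAS5 and SNHG5 stay well above Ctrl in all 3 media, and SNHG18 runs the other way.

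A set of 5 host genes was lower than Ctrl in all 3 media: SNHG10, SNHG28, SNHG3, SNHG4 and SNHG26. How many of all tested genes were lower in all 3 was not counted. SNHG10, the host of SCARNA13, had 2.56, 2.05 and 3.40 CPM in M0, 2.15, 2.17 and 1.91 in M1, 3.31, 2.34 and 2.11 in M2, and 5.23, 6.03 and 5.34 CPM in Ctrl. No conditioned library reached the Ctrl range. The log2 fold change was -1.03 ± 0.19 in M0, -1.41 ± 0.18 in M1 and -1.08 ± 0.18 in M2 (adjusted p = 0.000185, 5.67e-06 and 9.07e-05). GLRX5, on the opposite strand to SNHG10, had log2 fold changes of 0.10, -0.18 and 0.03 against Ctrl and was not called in any of the 3.

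SNHG28 averaged 1.1 ± 0.628 CPM in M0, 0.943 ± 0.132 in M1, 0.965 ± 0.178 in M2 and 2.16 ± 0.256 in Ctrl (SD, n = 3 each). Its log2 fold change in M0, -0.94, was -1.55 without M0 replicate 3 (adjusted p = 8.66e-05) and -0.73 without M0 replicate 1, where the call was lost (0.0556). SLAMF8, which overlaps it on the opposite strand, averaged 7 CPM in M1, against 0.0992 in Ctrl, a direction SNHG28 did not share.

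The 3 other genes that fell in all media are among those high in Ctrl replicate 1. SNHG3, which carries the H/ACA RNAs SNORA73A and SNORA73B, had 36.1, 26.1 and 34.2 CPM in M0, 20.9, 18.6 and 20.3 in M1, 27.0, 25.2 and 24.6 in M2, all below the lowest Ctrl value of 38.2. Its log2 fold change was -0.66, -1.36 and -0.99 in M0, M1 and M2 with all libraries, and -0.31, -0.99 and -0.64 without Ctrl replicate 1 (adjusted p = 0.0307, 4.28e-06 and 0.00025). RCC1, whose exons overlap SNHG3 on the same strand, was also lower in all 3 media, with log2 fold changes of -0.94, -1.49 and -1.10 in M0, M1 and M2, and at exons they share the reads of the 2 genes cannot be told apart.

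SNHG4, the host of SNORA74A, was 2.76-fold lower in M0, 3.98-fold in M1 and 2.24-fold in M2, and 1.84-fold, 2.62-fold and 1.49-fold lower without Ctrl replicate 1 (adjusted p = 0.00368, 7.5e-05 and 0.0282). SNHG26, the host of SNORD93, was 3.25-fold, 2.64-fold and 3.34-fold lower, and 1.99-fold, 1.6-fold and 2.04-fold lower without that library (adjusted p = 0.00133, 0.00819 and 0.000741). Both genes therefore kept their calls while the size of the change depended on that library. Exons of MATR3 overlap SNHG4 on the same strand, and 2 identifiers in the table bear that name. One was also lower in all 3 media, at 0.775 ± 0.388 CPM in M0, 0.641 ± 0.0423 in M1, 0.728 ± 0.113 in M2 and 1.56 ± 0.86 in Ctrl (adjusted p = 0.0267, 0.00397 and 0.0115), and it too was high in Ctrl replicate 1, at 2.56 CPM against 1.1 and 1.03 in the other Ctrl libraries. The other identifier was called in none of the 3, and had 2.21 CPM there against 0.837 and 0.656. At shared exons the reads of MATR3 and SNHG4 cannot be told apart. SIL1, on the opposite strand, was higher than Ctrl in all 3 media, by 0.35, 0.40 and 0.40 on the log2 scale.

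The calls of SNHG12 against Ctrl, host of SNORA44, SNORA61 and SNORD99, changed with Ctrl replicate 1. With all libraries it was lower in M1 (log2 fold change -0.73, adjusted p = 0.0225) and not called in M0 (0.02) or M2 (0.25). Without that library it was higher in M0 (0.53, adjusted p = 0.0224) and M2 (0.76, 0.00195), and M1 was not called (-0.20, 0.34). The M1 call was also lost without M1 replicate 3 (0.071) and, with all libraries, under DESeq2 (0.0502) and under limma on the deposited log2 values (0.0521). TRNAU1AP, opposite SNHG12, averaged 13.6 CPM in M0, 8.95 in M1, 8.79 in M2 and 15.5 CPM in Ctrl.

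Another 4 members were called lower in M1 alone of the 3 media, SNHG12, SNHG19, SNHG6 and SNHG9, and 2 in M1 and M2, SNHG7 and SNHG21. SNHG7, host of SNORA17A and SNORA17B, had 23.2, 20.2 and 23 CPM in M0, 10.2, 8.70 and 10.8 in M1, 20.1, 16 and 18 in M2, and 21.8, 25.9 and 27.0 CPM in Ctrl. Only the M1 libraries stood far below the rest. The log2 fold change over Ctrl was -0.16 ± 0.11 in M0 (adjusted p = 0.21), -1.32 ± 0.11 in M1 (4.97e-08) and -0.46 ± 0.11 in M2 (0.00179). SNHG19, host of SNORD60, was 2.44-fold lower in M1 (adjusted p = 3.87e-05), SNHG9, host of SNORA78, 2.03-fold (0.00379) and SNHG6, host of SNORD87, 1.44-fold (1.82e-05). SNHG19 was not called in M2 (-0.39, 0.0801) but was without M2 replicate 1 (-0.60, 0.0214). SNHG6 was not called in M2 (-0.17, 0.0588), but was lower there under RLE scaling (0.0392), library totals (0.0258), DESeq2 (0.0401), limma (0.0453) and with only the groups compared (0.0484), and in 5 of the 12 runs that left out 1 library. SNHG9 in Ctrl ran from 1.21 CPM in replicate 1 to 2.78 in replicate 3, which overlaps the M1 range of 0.704 to 1.32. SNHG21, the host of SCARNA15, had 137 reads in all, 60 of them in Ctrl and 16 in M1. It reached the filter's cutoff in 3 libraries of Ctrl, 2 of M0, 1 of M2 and 0 of M1. It thus passed the filter through the groups where it was high, which limits its calls here and in M1 against M0. It was lower in M1 (-1.90, adjusted p = 0.00087) and M2 (-1.08, 0.0228), and the M2 call was lost without Ctrl replicate 3 (0.0823), M2 replicate 2 (0.0755) or M2 replicate 3 (0.09). Exons of AC105339.2, with 233 reads, overlap SNHG21 on the same strand. AC105339.2 was also lower in M1 (-0.97, 0.0497) but not called in M2 (-0.56, 0.235). It had 1.48 CPM in Ctrl replicate 1, against 0.469 and 0.5 in the other Ctrl libraries. At shared exons the reads of the 2 genes cannot be told apart.

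SNHG20 and SNHG25 were called in none of the comparisons. SNHG20 averaged 2.79 ± 0.0787 CPM in M0, 2.13 ± 0.376 in M1, 2.35 ± 0.158 in M2 and 2.54 ± 0.583 CPM in Ctrl. SNHG25 had 85 reads in all and at most 0.502 CPM in any library.

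**Figure D4:**
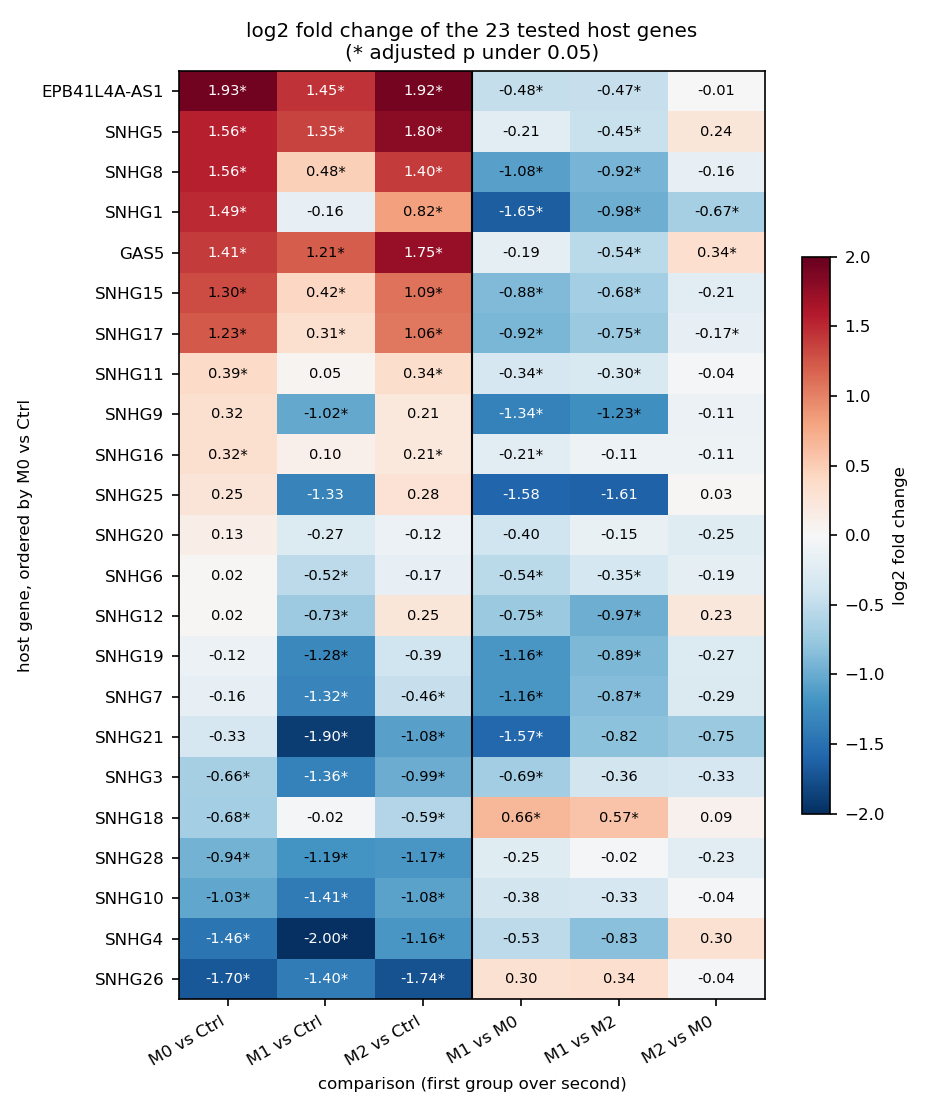
Log2 fold change (first group over second, colour and number) of the 23 tested host genes in 6 comparisons, with an asterisk where the adjusted p is under 0.05. Left of the line, the 3 media against Ctrl run from 1.93 for EPB41L4A-AS1 in M0 down to -1.90 and below for SNHG21, which had few reads, and SNHG4 in M1. Right of it, the M1 columns are negative for most genes and the M2 vs M0 column has 3 asterisks.

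The study's main question was how the 3 macrophage media differ from one another. A joint test of M0, M1 and M2 called 17 of the 23 members, 73.9%, against 56.6% of all genes. In M1 against M0, 14 members were lower and 1 was higher, where 26.7% of all genes were lower and 25.5% higher. M1 against M2 gave 13 lower and 1 higher, where 16.6% of all genes were lower and 15.9% higher. In all, 65.2% and 60.9% of tested members were called, against 52.2% and 32.5% of all genes. At least 2-fold lower were 6 members against M0, where 3.20% of all genes were, and 1 member, SNHG9, against M2, where 1.31% of all genes were. Median log2 fold changes of the members were -0.54 in both comparisons, beside -0.01 and -0.03 for all tested genes. Both comparisons share the M1 libraries. The number lower in M1 against M0 ran from 11 to 15 when any single library was left out, and against M2 from 11 to 15.

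The 11 members lower in M1 than in both M0 and M2 were SNHG1, SNHG17, EPB41L4A-AS1, SNHG11, SNHG12, SNHG15, SNHG19, SNHG6, SNHG7, SNHG8 and SNHG9. The share of all tested genes lower in both was not counted, so this number has no background beside it. For SNHG1, with the values given above, all M1 libraries lay below all M0 and M2 libraries, and the log2 fold change was -1.65 ± 0.14 against M0 (adjusted p = 2.39e-07) and -0.98 ± 0.14 against M2 (7.2e-05). SNHG17 was 1.89-fold lower than in M0 (adjusted p = 1.23e-08) and 1.68-fold lower than in M2 (1.47e-07), again with no overlap. SNHG8 was 2.12-fold and 1.9-fold lower, SNHG7 2.24-fold and 1.82-fold, and SNHG15 1.84-fold and 1.6-fold, with adjusted p of at most 0.000239 in each.

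SNHG9 and SNHG19, both at low levels, were also lower. SNHG9 had 1.32, 0.704 and 1.01 CPM in M1, against 2.495, 2.75 and 2.59 in M0 and 2.49, 2.52 and 2.22 in M2, 2.54-fold and 2.35-fold lower (adjusted p = 0.000852 and 0.00294). SNHG19 had 0.71, 0.672 and 0.79 CPM in M1, against 1.42, 1.58 and 1.89 in M0 and 1.65, 1.24 and 1.11 in M2, 2.24-fold and 1.86-fold lower (0.000315 and 0.00471). M1 libraries did not overlap those of the other media for either gene. Other low-level members were called in neither comparison in the reported fit. Among them were SNHG26, at 0.30 against M0 and 0.34 against M2 on the log2 scale, SNHG28, at -0.25 and -0.02, and SNHG4, SNHG10, SNHG20 and SNHG25. SNHG6 was 1.46-fold lower than in M0 and 1.27-fold lower than in M2 (3.77e-05 and 0.00283), and EPB41L4A-AS1 1.39-fold and 1.38-fold lower (0.000974 and 0.00215).

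Some of these calls were close to the threshold. SNHG12 was 1.68-fold lower than in M0 and 1.97-fold lower than in M2 (adjusted p = 0.0301 and 0.0104), and the call against M0 was lost without M0 replicate 1 or 2 or without any 1 of the M1 replicates (0.0584 to 0.108) and under DESeq2 with all libraries (0.0544), and that against M2 without M2 replicate 1 (0.055). For SNHG11, 1.26-fold and 1.23-fold lower (0.0104 and 0.0316), the call against M2 was lost in 7 of the 12 runs that left out 1 library. SNHG16, SNHG21 and SNHG3 were called lower in M1 than in M0 only. SNHG16's change was 1.16-fold (0.0116) and lost its call without M0 replicate 1, M1 replicate 1 or M1 replicate 3 (0.0507 to 0.0661), and SNHG21's lost its call without M0 replicate 3 (0.0935) or M1 replicate 1 (0.0558). SNHG3 and SNHG4 were called lower in M1 than in M2 once Ctrl replicate 1, which sets part of the shared spread, was left out (adjusted p = 0.0208 and 0.00801), and SNHG4 also without Ctrl replicate 3 (0.0364). Both were also called lower with no filter (0.00665 and 0.000532) and with only the groups compared (0.00748 and 0.012). For SNHG4 the call appeared under DESeq2 (0.0423) and with the replicate block (0.0301) as well.

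**Figure D5:**
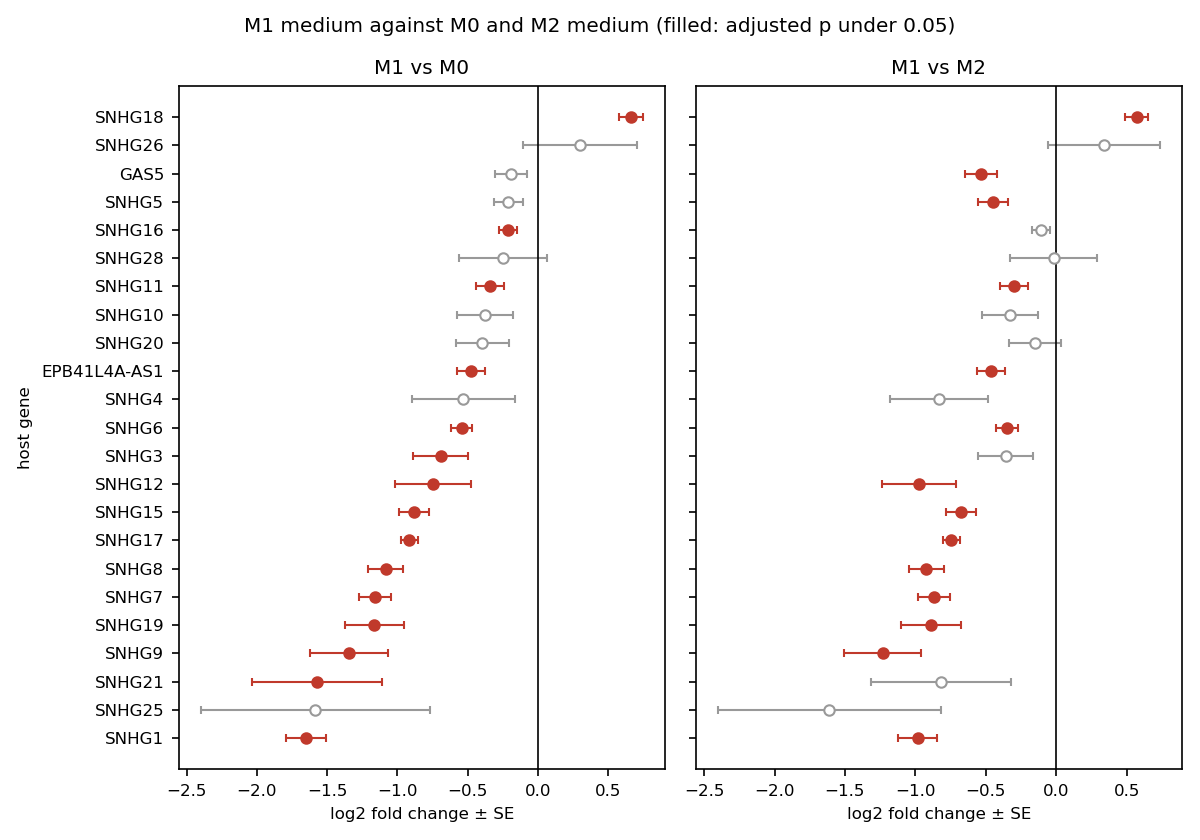
Log2 fold change ± SE (edgeR, n = 3 per group) of each tested host gene in M1 against M0 (left) and M1 against M2 (right), ordered by the left panel; filled points have an adjusted p under 0.05. All filled points are below 0 but 1 per panel, SNHG18 at 0.66 and 0.57, and SNHG1 is the lowest filled point on the left at -1.65.

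GAS5 and SNHG5 differed from SNHG1 in this respect. GAS5 was not called between M1 and M0, with a log2 fold change of -0.19 ± 0.12 (adjusted p = 0.175), though M0 replicate 3 was its lowest conditioned library at 89.1 CPM and without it the value was -0.32 (0.0143). Against M2 it was lower in M1 by 0.54 on the log2 scale (log2 fold change -0.54, 0.00229). SNHG5 was likewise not called against M0 (-0.21 ± 0.1, 0.108) and was lower than in M2 (-0.45 ± 0.1, 0.00404); its call against M0 appeared without M0 replicate 3 (-0.29, 0.0288) or M1 replicate 2 (-0.32, 0.0146). The ratio of GAS5 to SNHG1 CPM within a library was 2.04, 2.03 and 2.15 in M1, 0.722, 1.17 and 0.514 in M0, 1.32, 1.74 and 1.53 in M2, and 0.73, 0.806 and 0.891 in Ctrl. All M1 ratios were above all others. The pair was chosen after its values were seen, and this ratio was not tested.

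SNHG18, the host of SNORD123, was the only member higher in M1 than in both other media. It had 14.8, 15.4 and 14.3 CPM in M1, against 8.63, 9.77 and 9.74 in M0, 9.81, 9.96 and 10.2 in M2, and 14.5, 14.9 and 15.7 CPM in Ctrl. M1 overlapped Ctrl, with M1 replicate 3 below the lowest Ctrl library, and all M0 and M2 libraries lay below both groups. Its log2 fold change was 0.66 ± 0.085 against M0 (adjusted p = 1.4e-05) and 0.57 ± 0.083 against M2 (9.3e-05). Against Ctrl it was -0.02 ± 0.081 in M1 (0.847), -0.68 ± 0.085 in M0 (5e-06) and -0.59 ± 0.083 in M2 (1.43e-05). These calls held without any single library.

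Between M2 and M0, 1 member was higher and 2 were lower, 13.0% of the 23, where 25.2% of all genes were called. SNHG1 was lower in M2 (log2 fold change -0.67 ± 0.14, adjusted p = 0.0037), with all M2 libraries below all M0 libraries. SNHG17 was barely lower (-0.17 ± 0.06, 0.0493), and its call was lost in 9 of the 12 runs that left out 1 library. GAS5 was higher in M2 (0.34 ± 0.12, 0.0406), its groups overlapped, and the call was lost in 6 of those 12 runs, for instance without M0 replicate 3 (0.21, 0.174). SNHG7 (-0.29 ± 0.11, 0.0648) was called lower in 3 of the 12 runs. In 1 run each, SNHG3 (-0.33, 0.0323) and SNHG15 (-0.34, 0.0338) were called lower and SNHG5 (0.33, 0.0369) was called higher. With all libraries, SNHG3 was also called lower with no filter (0.00569) and with only the groups compared (0.0499), and SNHG7 with no filter (0.0456).

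The members were also counted by the kind of small RNA they carry. Of the 9 H/ACA hosts, 5 were higher and 2 lower in M0 than in Ctrl, 4 higher and 4 lower in M1, and 5 higher and 3 lower in M2. In M1, 8 of these 9 were lower than in M0 and 7 lower than in M2, and 0 were higher in either. Of the 7 tested C/D hosts, 3 were higher and 2 lower in M0 than in Ctrl, 1 higher and 3 lower in M1, and 3 higher and 2 lower in M2. In M1, 4 of the 7 were lower and 1 higher than in M0, and likewise 4 lower and 1 higher than in M2. GAS5, known as a C/D host, is not among these 7, because the annotation names no guide inside it. It was higher than Ctrl in all 3 media, not called in M1 against M0, and lower in M1 than in M2. SNHG28, lower than Ctrl in all 3 media, has no named guide either and is in none of the kinds. Of SNHG12 and SNHG25, which carry both kinds, SNHG12 was lower in M1 than in Ctrl, M0 and M2, and SNHG25 was not called. Among the 3 tested Cajal body RNA hosts, 1 was lower than Ctrl in M0, 2 in M1 and 2 in M2, and the others were not called against Ctrl. In M1, 1 of the 3, SNHG21, was lower than in M0, and 0 were called against M2. As background, calls of a fall covered 26.7% of all tested genes for M1 against M0 and 16.6% for M1 against M2. Calls of a rise covered 25.5% and 15.9%. Against Ctrl, either direction covered 30.6% to 35.2% of all tested genes, depending on the medium. The counts against Ctrl were therefore not read as particular to a kind. No test between the kinds was made.

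Overlapping genes limit some of these values. On the same strand, 6 members overlap an exon of another gene, SNHG3, SNHG4 and SNHG21 among them. The library kit marks strand, but the strand setting of the counting is not given in the sources used here, and 12 of the 26 members overlap an exon of a gene on the other strand. Of those 12, 10 were tested, and of the 14 without one, 13 were tested. Lower in M1 than in Ctrl were 7 of the 10 with such a gene, and 4 of the 13 without one, 30.8%, where 35.0% of all genes were. For M2 against Ctrl, 5 of the 10 and 3 of the 13, 23.1%, were called lower, beside a background of 32.4%. For M0 against Ctrl it was 3 of the 10, 30%, and 3 of the 13, 23.1%, beside 30.6%, so neither share exceeded the background. In M1 against M0, 6 of the 10 were lower and 8 of the 13, 61.5%, beside a background of 26.7%. Against M2 it was 5 of the 10 and 8 of the 13, beside 16.6%. How far opposite-strand reads enter these counts was not tested. GAS5, SNHG7, SNHG12, SNHG6 and EPB41L4A-AS1 are among the 12; SNHG1, SNHG17, SNHG8, SNHG15, SNHG5 and SNHG18 are not.

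The same fit gave the values of gene lists around the host genes. Of all tested genes, 31.1% were higher and 30.6% lower in M0 than in Ctrl, 35.2% and 35.0% in M1, and 34.1% and 32.4% in M2. Between media, 25.5% were higher and 26.7% lower in M1 than in M0, 15.9% and 16.6% in M1 than in M2, and 12.5% and 12.7% in M2 than in M0. No list was tested as a set.

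A list of ribosomal protein and translation factor genes stands here for the oligopyrimidine class. It was drawn up by gene name, paralogs such as RPS27L and RPL39L included, and the starts of its genes were not checked for the tract. Of its 99 tested genes, 54 were higher and 6 lower in M0 than in Ctrl, 16 higher and 35 lower in M1, and 45 higher and 16 lower in M2. The share called was 60.6%, 51.5% and 61.6% in M0, M1 and M2, beside 61.7%, 70.2% and 66.5% of all genes. In M1, 70 were lower and 1 higher than in M0 (71.7% called, beside 52.2% of all genes), and 44 lower and 2 higher than in M2 (46.5%, beside 32.5%), with median log2 fold changes of -0.34 and -0.20. In M2 against M0, 17 were lower and 2 higher (19.2%, beside 25.2%). EIF3F, a subunit of the initiation factor that loads the small ribosomal subunit, averaged 201 ± 10.6 CPM in M1 and 328 ± 2.51 in M2, the lowest called log2 fold change of that comparison at -0.71. RPS28 was the lowest in M1 against M0, at -0.93, and RPL39L in M2 against M0, at -0.62. RPS27L, a ribosomal protein paralog induced by p53, was the highest call in all 3 of these comparisons and averaged 51.2 ± 3.51 CPM in M1 and 30.1 ± 2.95 in M0. Against Ctrl the highest call was RPS27 in each medium and the lowest were RPS26 in M0 and M2 and RPS10 in M1, all at under 7 CPM, and ribosomal protein genes have many near-identical pseudogenes, so their counts are uncertain.

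Protein-coding hosts of small nucleolar RNAs, 24 genes, had 12 higher and 4 lower in M0 than in Ctrl, 7 and 7 in M1, and 12 and 5 in M2, so that 66.7%, 58.3% and 70.8% were called, beside 61.7%, 70.2% and 66.5% of all genes. In M1, 13 were lower and 2 higher than in M0, and 10 lower and 1 higher than in M2 (62.5% and 45.8% called, beside 52.2% and 32.5%). In M2, 7 were lower and 2 higher than in M0 (37.5%, beside 25.2%). HSPA9, the mitochondrial chaperone mortalin, averaged 1623 ± 56.2 CPM in M0, 1451 ± 71.7 in M1, 1633 ± 39.5 in M2 and 755.9 ± 31 in Ctrl. HSPA8, the constitutive cytosolic chaperone, averaged 1065 ± 58.9 in M0, 1431 ± 290 in M1, 938 ± 102 in M2 and 3636 ± 54.5 CPM in Ctrl. The 2 chaperone genes thus moved in opposite directions against Ctrl. EIF5, an initiation factor, was the lowest call in M1 against M0, at 710 ± 85.8 and 1222 ± 131 CPM. PPAN, a ribosome biogenesis factor, was the highest call in M2 against M0 and the lowest in M1 against M2, at 0.44 and -0.47 on the log2 scale.

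Of the 19 core and assembly factors of the small nucleolar ribonucleoproteins, 10 were higher and 5 lower in M0 than in Ctrl, 4 and 9 in M1, and 8 and 5 in M2, so that 78.9%, 68.4% and 68.4% were called, beside 61.7%, 70.2% and 66.5% of all genes. In M1, 13 were lower than in M0 and 9 lower than in M2, 68.4% and 47.4%, where 26.7% and 16.6% of all genes were lower, and the others were not called. In M2 against M0, 1 was higher and 2 were lower (15.8% called, beside 25.2%). DKC1, the pseudouridine synthase of H/ACA particles, was the highest call in M0 against Ctrl, at 0.68 on the log2 scale. NOP58, a core protein of C/D particles, averaged 289 ± 37.8 CPM in M1, 339 ± 6.93 in M2 and 206 ± 6.93 in Ctrl. RUVBL2, an ATPase of the assembly machinery, averaged 151 ± 27.1 CPM in M1 and 281 ± 15.5 in M0, and GAR1, of H/ACA particles, had the smallest called fall of that comparison at -0.21 on the log2 scale. TCOF1 and NOP56 were the highest and lowest calls in M2 against M0, at 0.31 and -0.27. RRP9, which binds the U3 particle, was the lowest of the list against Ctrl in each medium, at 21.7 ± 3.14 CPM in M0, 16.2 ± 1.34 in M1, 19.5 ± 1.43 in M2 and 39.0 ± 4.29 in Ctrl.

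Nonsense-mediated decay factors, 19 genes, had 10 higher and 2 lower in M0 than in Ctrl, 8 and 4 in M1, and 9 and 3 in M2, 63.2% called in each medium, near the 61.7%, 70.2% and 66.5% of all genes. In M1, 8 were lower and 2 higher than in M0 (52.6% called, beside 52.2%), and 5 lower and 1 higher than in M2 (31.6%, beside 32.5%). In M2, 1 was higher and 1 lower than in M0 (10.5%, beside 25.2%). SMG1, the kinase that phosphorylates UPF1, was the highest call in M1 against each of the others, at 725 ± 68.8 CPM in M1, 487 ± 26.7 in M0, 563 ± 52.6 in M2 and 315 ± 29.4 in Ctrl. UPF3B, which links UPF proteins to exon junctions, was the highest call against Ctrl in M0 and M2, by 0.91 and 1.14 on the log2 scale, and UPF3A was the highest in M2 against M0, by 0.39. NCBP1, of the nuclear cap-binding complex, was the lowest call against Ctrl, at -0.27, -0.42 and -0.40 in M0, M1 and M2. SMG5, which recruits decay enzymes to phosphorylated UPF1, averaged 295 ± 29.5 CPM in M1, 317 ± 29.2 in M2 and 444 ± 62.9 in M0, and SMG9 was the lowest call in M1 against M2, at -0.51 on the log2 scale.

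Of the 19 RNA polymerase I genes, 7 were higher and 5 lower in M0 than in Ctrl, 3 and 11 in M1, and 4 and 8 in M2, so that 63.2%, 73.7% and 63.2% were called, near the 61.7%, 70.2% and 66.5% of all genes. In M1, 10 were lower and 1 higher than in M0 (57.9% called, beside 52.2%), and 6 were lower than in M2 (31.6%, beside 32.5%). In M2, 2 were lower and 1 higher than in M0 (15.8%, beside 25.2%). POLR2L, a subunit shared by the RNA polymerases, was the lowest call in M1 against each of the others, at 43.4 ± 10 CPM in M1, 99.6 ± 3.12 in M0, 84.4 ± 5.55 in M2 and 130 ± 30.7 in Ctrl. TTF1, the RNA polymerase I termination factor, was the lowest call against Ctrl in M0 and M2, at -1.18 and -0.91 on the log2 scale, and the highest in M1 and M2 against M0, at 0.43 and 0.27. TAF1D, itself a host of small nucleolar RNAs, was the highest against Ctrl in each medium, by 0.60, 0.56 and 0.78 on the log2 scale in M0, M1 and M2. POLR1E was the lowest call in M2 against M0, at -0.33, and POLR1A had the smallest called fall in M1 against M2, at -0.19.

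Regulators of mTORC1 and of oligopyrimidine messenger RNAs, 18 genes, had 7 higher than Ctrl in each medium, and 4 lower in M0, 4 in M1 and 5 in M2, so that 61.1%, 61.1% and 66.7% were called, near the 61.7%, 70.2% and 66.5% of all genes. In M1, 4 were higher and 7 lower than in M0 (61.1% called, beside 52.2%), and 6 lower than in M2 (33.3%, beside 32.5%). In M2, 4 were higher and 1 lower than in M0 (27.8%, beside 25.2%). SESN2, an inhibitor of mTORC1 that senses leucine, averaged 413 ± 18 CPM in M0, 330 ± 13.9 in M1, 414 ± 6.3 in M2 and 5.65 ± 0.919 in Ctrl. CASTOR2, of a family of arginine-sensing mTORC1 inhibitors, was the lowest call against Ctrl, at -1.83, -1.28 and -1.30 on the log2 scale in M0, M1 and M2 and under 2 CPM on average in each group. EIF4EBP2, a repressor of the cap-binding protein EIF4E, was the highest call in M1 against M0, at 0.61, and MLST8, an mTOR complex subunit, the lowest, at -0.71. DEPTOR, an mTOR inhibitor at under 3 CPM in the macrophage media, was the highest call in M2 against M0, at 0.65, and the lowest in M1 against M2, at -0.71, and EIF4E was the lowest in M2 against M0, at -0.38. LARP1, which binds the capped start of oligopyrimidine messenger RNAs, had the smallest called fall in M1 against M2, at 1164 ± 37.5 CPM in M1 and 1310 ± 28.1 in M2.

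Of the 10 tested MYC family genes, 8 were higher than Ctrl and 2 lower in M0, again 8 and 2 in M1, and 7 and 2 in M2, where all 10, all 10 and 90.0% were called, beside 61.7%, 70.2% and 66.5% of all genes. In M1, 3 were higher and 3 lower than in M0 (60.0%, beside 52.2%), and 2 and 3 than in M2 (50.0%, beside 32.5%). In M2, 2 were higher and 2 lower than in M0 (40.0%, beside 25.2%). MYC, a general activator of ribosome genes, averaged 166 ± 9.65 CPM in M1 and 224 ± 12.9 in M2. The MYC antagonists MXD1 and MXD3 moved in opposite directions against Ctrl. MXD1 averaged 58.2 ± 0.748 CPM in M0, 43.7 ± 0.0495 in M1, 58.6 ± 3.64 in M2 and 7.09 ± 1.08 in Ctrl, and MXD3 averaged 1.29 ± 0.272 in M0, 0.538 ± 0.0395 in M1, 0.771 ± 0.225 in M2 and 4.68 ± 0.175 CPM in Ctrl. MXD3 had log2 fold changes of -1.84, -3.11 and -2.57 against Ctrl in M0, M1 and M2, and was also the lowest call in M1 against M0, at -1.27, and in M2 against M0, at -0.73. The highest calls between media were MGA in M1 against M0, at 0.36, MAX, the shared partner of the family, in M1 against M2, at 0.29, and MXD4 in M2 against M0, at 0.42. Some genes stand in more than one of these lists, TAF1D, DKC1, NOP56 and NOP58 among them.

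Of the cell type markers, MITF was higher than Ctrl in M0, M1 and M2, by 1.38, 0.86 and 0.86 on the log2 scale, and lower in M1 than in M0, at -0.51, and the macrophage marker CD33, at under 1 CPM, was lower in M1 than in Ctrl, at -0.82. Of the dedifferentiated melanoma markers, TNC, a matrix protein, had the highest call against Ctrl, at 1.43, 2.14 and 3.25 in M0, M1 and M2, and SOX9 the lowest, at -1.45, -2.15 and -1.88. TNC was also the highest in M1 and M2 against M0, at 0.72 and 1.82, and the lowest in M1 against M2, at -1.10. AXL was the lowest in M1 against M0, at -0.76, SOX9 in M2 against M0, at -0.43, and VIM was the highest in M1 against M2, at 0.42.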

How the data were processed

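Groups and replicate numbers came from the labels. Stranded mRNA was sequenced as single ends of 50 nt in a pair of runs, per the labels' protocols, and the files hold both runs together. Among tools, the submitters' processing notes list STAR 2.5.4b and Bowtie2 2.2.3, Trimmomatic 0.36 and FastQC 0.11.7, DESeq2 1.20.0, R 3.5.0 and R 3.3.3, with build hg38. Which tool counted reads, with which strand setting and annotation, is not given in the sources used here. As raw data, the authors deposited raw read counts for 58288 gene identifiers, and the 12 per-sample files equalled its columns. They also deposited a table of variance-stabilized log2 values, used for gene names and in 1 alternative. GENCODE release 29 matched 55619 identifiers with version, 58025 without it, and all 26 members.

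The counts went into edgeR 4.0.16 (R 4.3.3): quasi-likelihood F test, TMM scaling, filterByExpr (minimum count 10, total 15), all 12 libraries in 1 fit without a replicate block, Benjamini-Hochberg adjustment over 14088 genes at 0.05. SE is the absolute log2 fold change over the square root of F. CPM is the count over library total times TMM factor, scaled to 1e6 reads. The steps were tested on simulated data. Replicates of a group differed beyond sampling noise (chi-square per degree of freedom 3.08 to 27.6). Alternatives were other scalings, DESeq2 1.42.0, limma 3.58.1 on the log2 values, no filter, only the groups compared, the replicate block, each library left out, members with no opposite-strand gene and, added after seeing the data, 3 libraries left out together (Ctrl replicate 1, M0 replicate 3 and M2 replicate 2).

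The members and the lists were chosen with earlier results of these data known. Named members were GAS5, EPB41L4A-AS1, the 5 with most CPM, the 3 highest and 3 lowest calls per comparison, every call of at least 2-fold, and those called in the joint test and in M1 against both M0 and M2; of each list, the highest and lowest call per comparison. The pyrimidine tract within 10 bases of the start and the GENCODE transcript starts were looked at after the promoter starts were seen. Other members are named to account for all 26.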

Additional observations from a re-analysis of the deposited data

How the results depend on the processing

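None of the 81 calls of members over the 6 comparisons changed direction under any alternative run. Among the 14 members with no gene on the opposite strand, counts lower were 3 in M0, 4 in M1 and 3 in M2 against Ctrl, 8 in M1 against M0 and 8 in M1 against M2; 10 differed jointly and 0 were higher in M2 than in M0. Fewer members were counted, 13 of them tested, and the share lower than Ctrl was also smaller, 30.8% beside 47.8% of all tested members in M1 and 23.1% beside 34.8% in M2. In M2 against M0, members higher were 0 with only the groups compared and 0 with 3 libraries left out, and members lower were 1 with library totals and 1 with 3 libraries left out; single libraries left out gave 0 to 2 higher and 1 to 3 lower. The cause was not tested. DESeq2 called 2 decay factors higher and 2 lower, and 4 ribonucleoprotein factors lower, in M2 against M0, and 5 ribonucleoprotein factors higher in M2 against Ctrl.

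Deviations of same-numbered libraries from their group means correlated at r = -0.077 to 0.154 across genes, so the numbers were not taken to pair samples. With the replicate block, 1 member was lower in M2 than in M0, and the other member counts stayed within 1.5 times those reported. SNHG6 in M2 against Ctrl (-0.17, adjusted p = 0.0588) passed the threshold under RLE scaling (0.0392), DESeq2 (0.0401) and other settings. Fold changes of SNHG21, with 137 reads, were smaller on the deposited log2 values (-0.87 in M1 against Ctrl). Few reads limit SNHG21, SNHG25 and SNHG28.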
